A study of Mus musculus with 4 samples.

Results

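The 9 genes Ighm, Cd79a, Cd79b, Blk, Cd22, Ms4a1, Fcmr, Pax5 and Ebf1 are transcribed mainly in B lymphocytes, and all 9 were found among the 13834 genes counted in RNA from mouse peritoneal macrophages. They were chosen by their measured values: as B lineage transcripts in cells washed from the peritoneum whose counts were lowest in 1 sample, Dnmt1KO replicate 1. All 9 passed the filter on low counts, with the smallest value, 12 counts, for Ebf1 in that sample. The series had 4 samples, 2 from Dnmt1fl/fl mice and 2 from Dnmt1KO mice, and asked what loss of the DNA methyltransferase Dnmt1 does to macrophages. Dnmt1fl/fl mice carry Dnmt1 alleles flanked by loxP sites and no Cre, and their genotype is given as wt in the labels. Dnmt1KO mice carry the same alleles together with Cre recombinase under the LysM promoter, which is active in myeloid cells and so is not expected to act in B cells. By the study's methods, mice were 10 weeks old and received thioglycolate broth into the abdomen 3 days before the cells were collected. The cells came out with the lavage fluid, were spun down and put in culture, and neither a sort nor a B cell depletion was named. Whether RNA was taken before or after culture is not stated. Nothing in the labels says whether the samples of a genotype came from separate mice, so p-values measure only the spread between these samples. In bulk RNA, fewer B cells and less of these RNAs per B cell cannot be told apart.

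B cells recognise antigen through the B cell receptor, a membrane immunoglobulin held together with the signalling chains encoded by Cd79a and Cd79b. Src family kinases such as Blk start its signal, surface proteins such as Cd22 adjust it, and the transcription factors Ebf1 and Pax5 set up and maintain the B lineage programme. B cells, including the innate-like B-1 cells, live in the peritoneal cavity beside resident macrophages, and a peritoneal wash therefore draws both.

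On mouse build GRCm38 (GENCODE M21), to which the genes were matched by symbol, the receptor genes lie at chr12:113418558-113422730 (Ighm, minus strand, an immunoglobulin constant gene), chr7:24897381-24902197 (Cd79a, plus strand) and chr11:106311341-106314762 (Cd79b, minus strand). Blk lies at chr14:63372836-63417037 on the minus strand. The surface protein genes are Cd22 at chr7:30865402-30880342 (minus strand), Ms4a1 at chr19:11249675-11266241 (minus strand) and Fcmr at chr1:130865669-130880791 (plus strand). Pax5 spans chr4:44524757-44710487 on the minus strand, and Ebf1 spans chr11:44617317-45008091 on the plus strand. Antisense genes cover 9.50% of the exon length of Cd22 (Gm29439) and 1.41% and 7.18% of that of Pax5 (Gm12462 and 5730488B01Rik). Reads of these partners cannot be separated from those of Cd22 and Pax5 unless strand was used in counting, which is not given in the sources used here.

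Promoter windows of RefSeq on GRCm38.p6, running from 250 bases before to 50 bases after a gene's start, were available for 5 of the 9 genes (Cd79a, Cd22, Fcmr, Pax5 and Ebf1, the last with 2 windows) and not for Cd79b, Ms4a1, Ighm and Blk. The windows of Cd79a, Cd22 and Fcmr are shown because these genes stand for 3 different degrees of difference in Dnmt1KO replicate 1. It was least for Cd22, intermediate for Cd79a and larger for Fcmr, though larger still for Pax5 and Ebf1. The windows of Cd79a, Cd22 and Fcmr lie at chr7:24897247-24897546 (plus strand), chr7:30878979-30879278 (minus strand) and chr1:130865527-130865826 (plus strand). Capitals mark matches to the motifs named next.
Cd79a: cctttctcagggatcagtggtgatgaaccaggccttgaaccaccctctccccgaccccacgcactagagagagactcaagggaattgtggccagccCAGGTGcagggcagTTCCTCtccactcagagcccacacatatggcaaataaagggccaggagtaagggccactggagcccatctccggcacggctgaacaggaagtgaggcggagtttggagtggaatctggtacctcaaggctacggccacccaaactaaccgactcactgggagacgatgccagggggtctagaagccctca
Cd22: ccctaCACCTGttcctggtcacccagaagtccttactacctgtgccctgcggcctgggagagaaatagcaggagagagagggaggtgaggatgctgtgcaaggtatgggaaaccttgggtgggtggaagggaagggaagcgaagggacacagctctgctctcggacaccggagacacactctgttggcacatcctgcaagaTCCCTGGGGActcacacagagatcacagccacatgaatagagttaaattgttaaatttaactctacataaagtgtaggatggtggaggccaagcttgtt
Fcmr: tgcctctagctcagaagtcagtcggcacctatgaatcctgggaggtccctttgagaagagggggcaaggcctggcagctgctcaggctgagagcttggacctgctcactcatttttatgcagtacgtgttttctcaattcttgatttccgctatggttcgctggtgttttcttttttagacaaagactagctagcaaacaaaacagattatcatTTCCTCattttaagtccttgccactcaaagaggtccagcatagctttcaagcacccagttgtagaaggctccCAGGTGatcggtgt
Both strands were searched for the palindrome bound by Ebf1 family proteins (capitals nearest the start in the Cd22 window), CAGGTG, an E box bound by E proteins, GAGGAA, a core of sites for the myeloid and B cell factor PU.1, and ATTTGCAT, the octamer of immunoglobulin promoters. The Ebf1 palindrome matched in the Cd22 window alone among the 6, at 49 bases before the start, and 0.904% of all 32851 windows hold it. An E box stood 154 bases before the start of Cd79a, 245 before that of Cd22 and 36 after that of Fcmr, a motif of 20.2% of windows. The PU.1 core was found 140 bases before the start of Cd79a, 36 before that of Fcmr and 130 before 1 of the starts of Ebf1, and is held by 28.3% of windows. The octamer, held by 1.74% of windows, matched in none of the 6 windows, and no motif matched in the Pax5 window. No 2 matches overlapped. Distances are from the RefSeq starts, which differ from the GENCODE gene ends given above, so the Cd22 window lies wholly and the Cd79a and Fcmr windows partly inside the gene spans. These are letter matches only.

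Levels are given as CPM, the counts of a gene relative to the total of its sample, after scaling with edgeR's TMM method. The deposited values were estimated counts totalling 20228071 to 24198943 per sample, the scaling factor of Dnmt1KO replicate 1 (0.910) lay below the others (1.02 to 1.04), and 12542 genes passed the filter. A floor of 3 counts corresponds to 0.124 to 0.148 CPM before TMM scaling. The targeted gene Dnmt1 measured 86.6 and 67.0 CPM in Dnmt1fl/fl and 37.0 and 42.7 CPM in Dnmt1KO, so both Dnmt1KO samples lay below both controls. Dnmt1KO replicate 1 stood apart from the other 3 samples in many genes, as described after the members, and each comparison of genotypes is therefore given with and without it. For a single value, 2 samples against 2 allow no two-sided exact permutation p below 0.333.

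RNA of all 9 B cell genes was measured in all 4 samples. Its amount varied far more between the 2 Dnmt1KO samples than between the genotypes. The rule chose genes lowest in Dnmt1KO replicate 1, so a gap between the Dnmt1KO samples was favoured in advance and is only a description. Summed over the 9 genes, the level was 395 and 526 CPM in Dnmt1fl/fl replicates 1 and 2, 184 CPM in Dnmt1KO replicate 1 and 595 CPM in Dnmt1KO replicate 2. Dnmt1fl/fl averaged 461 ± 92.4 CPM (SD, n = 2) and Dnmt1KO 390 ± 290 CPM (SD, n = 2), a log2 ratio of -0.24. The Dnmt1KO samples differed 3.23-fold and the Dnmt1fl/fl samples 1.33-fold. Without Dnmt1KO replicate 1 the log2 ratio was 0.37, and without Dnmt1KO replicate 2 it was -1.32, so its direction depended on which Dnmt1KO sample was read. Ighm supplied 48.6% to 54.4% of the sum in every sample. With Ighm left out the sums were 199 and 240 CPM in Dnmt1fl/fl, 94.9 CPM in Dnmt1KO replicate 1 and 286 CPM in Dnmt1KO replicate 2, in the same order.

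**Figure D1:**
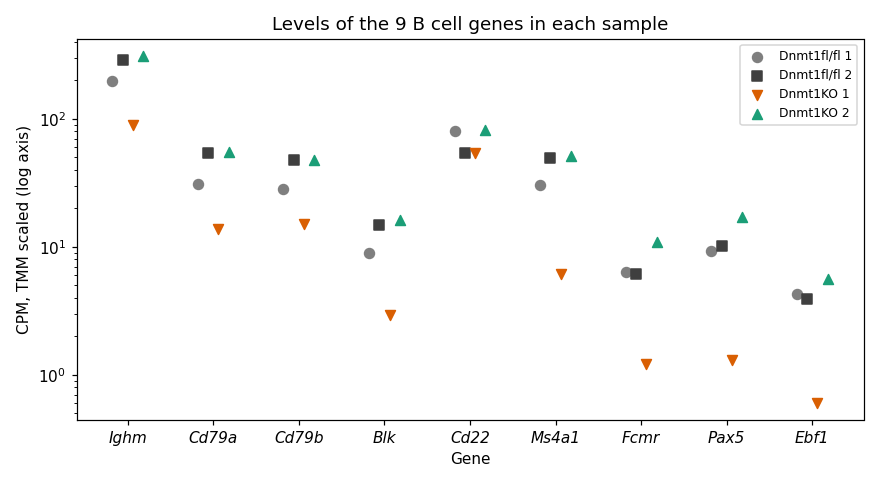
Levels of the 9 B cell genes in the 4 samples, in TMM-scaled CPM on a log axis, with 1 point per sample (grey circle and black square, Dnmt1fl/fl 1 and 2; orange and green triangles, Dnmt1KO 1 and 2). Dnmt1KO replicate 1 lies lowest for 8 genes and level with Dnmt1fl/fl replicate 2 for Cd22 (54.0 and 53.7 CPM).

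Of the receptor genes, Ighm, which encodes the heavy chain of IgM, measured 196 and 286 CPM in Dnmt1fl/fl replicates 1 and 2, 89.6 CPM in Dnmt1KO replicate 1 and 309 CPM in Dnmt1KO replicate 2. Cd79a measured 30.8 and 54.0 CPM in Dnmt1fl/fl, then 13.7 and 54.7 CPM in Dnmt1KO. For Cd79b the values were 28.2 and 47.6 CPM in Dnmt1fl/fl and 15.0 and 47.8 CPM in Dnmt1KO. In all 3 genes Dnmt1KO replicate 2 sat with or just above Dnmt1fl/fl replicate 2, Dnmt1fl/fl replicate 1 was lower, and Dnmt1KO replicate 1 was lower still, so that the genotypes overlapped. The Dnmt1KO samples differed 3.45-fold in Ighm, 3.98-fold in Cd79a and 3.18-fold in Cd79b, and the Dnmt1fl/fl samples 1.46-fold, 1.75-fold and 1.69-fold.

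Blk, the Src family kinase of B cells, measured 8.96 and 14.7 CPM in Dnmt1fl/fl and 2.93 and 16.3 CPM in Dnmt1KO. Its order over samples was that of the receptor genes, with a wider gap of 5.57-fold between the Dnmt1KO samples.

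The surface proteins did not follow a single pattern. Ms4a1, a membrane protein of mature B cells, measured 30.2 and 49.6 CPM in Dnmt1fl/fl and 6.11 and 51.0 CPM in Dnmt1KO, an 8.35-fold gap between the Dnmt1KO samples. Fcmr, the Fc receptor for IgM, measured 6.33 and 6.14 CPM in Dnmt1fl/fl and 1.21 and 10.9 CPM in Dnmt1KO, a 9.02-fold gap. Here the controls were level, differing 0.969-fold, with Dnmt1KO samples on either side of them. Cd22, an inhibitory sialic acid-binding receptor, measured 81.0 and 53.7 CPM in Dnmt1fl/fl and 54.0 and 82.5 CPM in Dnmt1KO. Cd22 was the exception among the 9 genes, with each genotype holding a sample near 54 CPM and a sample above 80 CPM.

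The transcription factors were the least abundant members per kilobase of exon. Pax5 measured 9.21 and 10.2 CPM in Dnmt1fl/fl and 1.31 and 17.0 CPM in Dnmt1KO, and its 12.9-fold gap between the Dnmt1KO samples was the widest of the 9 genes. Ebf1 measured 4.24 and 3.91 CPM in Dnmt1fl/fl and 0.606 and 5.64 CPM in Dnmt1KO, a 9.30-fold gap. In counts, Dnmt1KO replicate 1 held 26 reads of Pax5 and 12 of Ebf1, above the floor of 3 counts. As for Fcmr, the controls lay close together between the Dnmt1KO samples.

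Per kilobase of exon, which allows levels to be compared between genes, the means over the 4 samples ran from 117 CPM per kilobase for Ighm through 26.3 for Cd79a, 24.2 for Cd79b, 13.4 for Cd22, 5.53 for Ms4a1, 3.98 for Blk, 3.55 for Fcmr and 1.06 for Pax5 to 0.369 for Ebf1. In this order the ranges over samples of neighbouring genes overlapped except between Ighm and Cd79a and between Cd22 and Ms4a1. In Dnmt1KO replicate 1 alone, Cd22 (10.7 CPM per kilobase) came level with Cd79b (10.5) and Cd79a (9.43). For comparison, the macrophage markers Lyz2, Cd68 and Itgam, which encode lysozyme, a lysosomal membrane protein and an integrin chain, averaged 16188, 1148 and 390 CPM per kilobase, so these 3 macrophage markers exceeded the B cell genes in these samples.

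Between genotypes, none of the 9 genes separated. The log2 fold change of Dnmt1KO over Dnmt1fl/fl was -0.28 for Ighm, -0.31 for Cd79a, -0.27 for Cd79b and -0.30 for Blk. It was 0.02 for Cd22, -0.48 for Ms4a1, -0.03 for Fcmr, -0.08 for Pax5 and -0.37 for Ebf1. Each was smaller than the pooled SD of log2 CPM between replicates, which was 0.42 for Cd22 and 0.91 to 1.80 for the other 8 genes. That SD takes in the gap between the Dnmt1KO samples, which the rule favoured, so it is no independent yardstick. The median over the 9 genes was -0.28, beside 0.0046 over all genes tested.

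The rule had used 1 of the samples in this contrast, so counts of calls among the members describe them and test nothing. Both Dnmt1KO samples lay below both Dnmt1fl/fl samples in 0 of the 9 genes, beside 8.56% of all genes tested. An unadjusted p under 0.05 with lower levels in Dnmt1KO came from edgeR's quasi-likelihood test in 0 of the 9, beside 0.167% of all genes. An adjusted p under 0.05 was reached by 0 of the 9 and by 0.0% of all genes, with 35 of 12542 genes at an unadjusted p under 0.05, while DESeq2 called 1 gene, not a member. Limma-voom moved the median of the members to -0.68 and the replicate number as a block to -0.69, with no adjusted call among the members in either and 1 member, Ms4a1, at an unadjusted p under 0.05 with the block. The sizes of single fold changes depended on the model, since limma-voom gave -0.93 for Pax5, -0.68 for Fcmr, -1.08 for Ms4a1 and -1.02 for Ebf1, and the block -0.94, -0.69, -1.10 and -1.01.

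**Figure D2:**
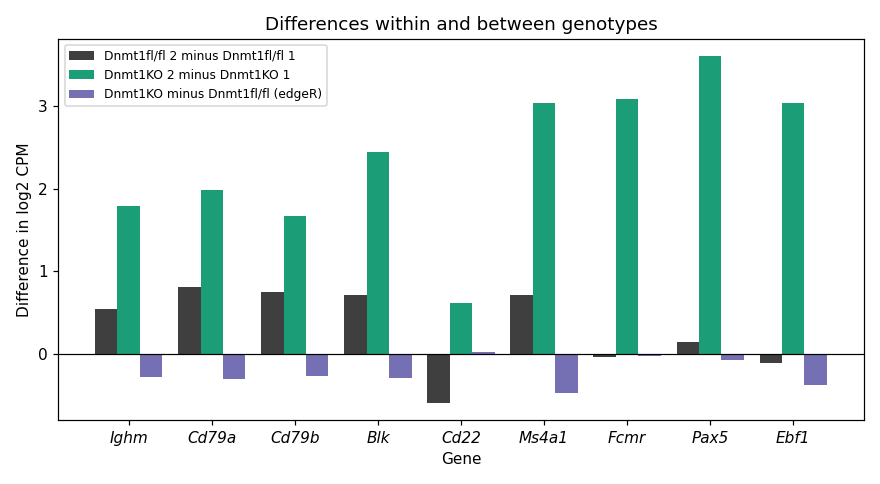
Differences in log2 CPM for each B cell gene between the Dnmt1fl/fl samples (black bars) and between the Dnmt1KO samples (green bars). Purple bars show the edgeR log2 fold change of Dnmt1KO over Dnmt1fl/fl, which is fitted to counts and is not a difference of mean log2 CPM. Limma-voom, fitted to log2 CPM, gave a median of -0.68 over the 9 genes, beside -0.28 from edgeR. The green bars run from 0.61 for Cd22 to 3.61 for Pax5 and exceed the size of the purple bars in all 9 genes. Choosing genes low in Dnmt1KO replicate 1 favours such a gap.

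The direction of these values depended on which sample was read. Without Dnmt1KO replicate 1 all 9 fold changes were above 0. Without Dnmt1fl/fl replicate 2 the log2 fold change turned to 0.15 for Cd79a, 0.15 for Cd79b, 0.021 for Ighm, 0.10 for Blk and -0.24 for Cd22, and the log2 ratio of the sums was -0.021. By deposited counts Dnmt1KO replicate 1 was lowest of the 4 samples in 9 of the 9 genes, as the rule required, beside 50.2% of all genes, and by TMM-scaled CPM in 8 of 9, beside 39.6% of all genes. Its log2 CPM fell under the mean of the other 3 samples by at least 1 in 8 of the 9 genes, beside 9.19% of all genes, and the median difference was -2.11, beside -0.0081 over all genes. The difference was -3.07 for Pax5, -2.78 for Ms4a1, -2.73 for Ebf1 and -2.55 for Fcmr. It was -2.11 for Blk, -1.71 for Cd79a, -1.53 for Ighm, -1.41 for Cd79b and -0.40 for Cd22. These are the values that chose the genes, and nothing is read from their size against the background. Of the 9 genes Cd22 was nearest to the edge of the rule, with 1069 counts in Dnmt1KO replicate 1 and 1348 in Dnmt1fl/fl replicate 2. Fcrl1 (86 counts against 92 in the next sample) and Cd180 (3792 against 4279), B lineage genes that are not among the 9, were lowest there by less. Just outside the rule was Tnfrsf13b, a receptor for B cell survival factors, with 1115 counts against 1021 in Dnmt1fl/fl replicate 1. In the fit without Dnmt1KO replicate 2, 8 of the 9 genes had an adjusted p under 0.05 from edgeR and were lower in Dnmt1KO, all but Cd22, beside 5.17% of all genes, and this too rests on the sample that chose them.

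**Figure D3:**
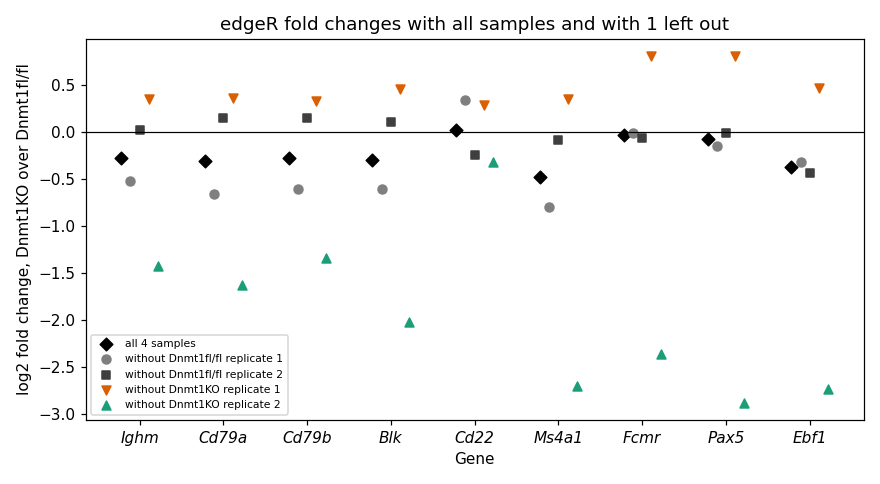
The edgeR log2 fold change of Dnmt1KO over Dnmt1fl/fl for each B cell gene with all 4 samples (black diamonds) and with 1 sample left out (other symbols). Without Dnmt1KO replicate 1 the values were 0.29 to 0.81, without Dnmt1KO replicate 2 they were -2.88 to -0.32, and without Dnmt1fl/fl replicate 2 they were -0.44 to 0.15.

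The comparison that did not use the selecting sample set Dnmt1KO replicate 2 against the 2 Dnmt1fl/fl samples, with scaling and filter redone over 12912 genes. All 9 genes were higher in Dnmt1KO replicate 2, by 0.29 (Cd22) to 0.81 (Pax5 and Fcmr) on the log2 scale. The log2 fold change was 0.35 for Ighm (SE 0.25), 0.36 for Cd79a (SE 0.29), 0.33 for Cd79b (SE 0.28) and 0.46 for Blk (SE 0.31). It was 0.29 for Cd22 (SE 0.25), 0.35 for Ms4a1 (SE 0.27), 0.81 for Fcmr (SE 0.27), 0.81 for Pax5 (SE 0.24) and 0.47 for Ebf1 (SE 0.33). None of the 9 genes passed edgeR's quasi-likelihood test, with an adjusted p of 1.00 for each. Of all genes 0.0% passed, with 352 at an unadjusted p under 0.05, while DESeq2 called 14 genes, none of them a member. At an unadjusted p under 0.05, 2 of the 9 (Pax5 and Fcmr) were higher, beside 1.15% of all genes. The members' median was 0.36, beside -0.0024 over all genes. Since the 9 genes moved together across the same 3 libraries, they are not independent observations, and the lone Dnmt1KO sample was assumed to vary like the controls. Over all 4 samples Dnmt1KO replicate 2 was highest in 9 of 9 genes by scaled CPM, beside 26.6% of all genes, and in 6 of 9 by deposited counts, beside 33.1%. These last counts do take in the selecting sample. The rule kept Dnmt1KO replicate 1 from being highest in the members, a condition not set for all genes, so the shares are not alike.

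The proportions among the B cell genes differed between samples as well as their amount. Ratios of counts to Cd79a do not depend on scaling or depth, and their 95% exact binomial intervals cover counting error only. Counts of Ighm per count of Cd79a were 6.37 and 5.30 in Dnmt1fl/fl, 6.53 in Dnmt1KO replicate 1 (interval 5.74 to 7.44) and 5.65 in Dnmt1KO replicate 2. Cd79b per Cd79a was 0.915 and 0.882 in Dnmt1fl/fl, 1.09 in Dnmt1KO replicate 1 (interval 0.923 to 1.29) and 0.873 in Dnmt1KO replicate 2. The spread over the 4 samples was 1.23-fold for Ighm and 1.25-fold for Cd79b, the narrowest of the members, although both were highest in Dnmt1KO replicate 1 and the Cd79b interval there lay above the other 3 values. Blk per Cd79a was 0.291 and 0.272 in Dnmt1fl/fl, 0.214 in Dnmt1KO replicate 1 (interval 0.158 to 0.284) and 0.298 in Dnmt1KO replicate 2, a 1.40-fold spread.

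Ms4a1 per Cd79a was 0.980 and 0.917 in Dnmt1fl/fl and 0.933 in Dnmt1KO replicate 2, but 0.445 in Dnmt1KO replicate 1 (interval 0.356 to 0.553). That interval lay below all 3 other samples. Pax5 per Cd79a was 0.299 and 0.188 in Dnmt1fl/fl, 0.0957 in Dnmt1KO replicate 1 (interval 0.0613 to 0.143) and 0.311 in Dnmt1KO replicate 2. Ebf1 per Cd79a was 0.138 and 0.0723 in Dnmt1fl/fl, 0.0442 in Dnmt1KO replicate 1 (interval 0.0225 to 0.0783) and 0.103 in Dnmt1KO replicate 2. Fcmr per Cd79a was 0.205 and 0.114 in Dnmt1fl/fl, 0.0884 in Dnmt1KO replicate 1 (interval 0.0556 to 0.134) and 0.200 in Dnmt1KO replicate 2. For Ebf1 and Fcmr the interval of Dnmt1KO replicate 1 reached the value of Dnmt1fl/fl replicate 2, and both ratios also differed between the controls, 1.90-fold over the 3 other samples for Ebf1 and 1.81-fold for Fcmr. Cd22 per Cd79a ran the other way, at 2.63 and 0.995 in Dnmt1fl/fl, 3.94 in Dnmt1KO replicate 1 and 1.51 in Dnmt1KO replicate 2, a 3.96-fold spread that was the widest of the members. The 9 transcripts thus did not keep a single ratio across the samples.

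**Figure D4:**
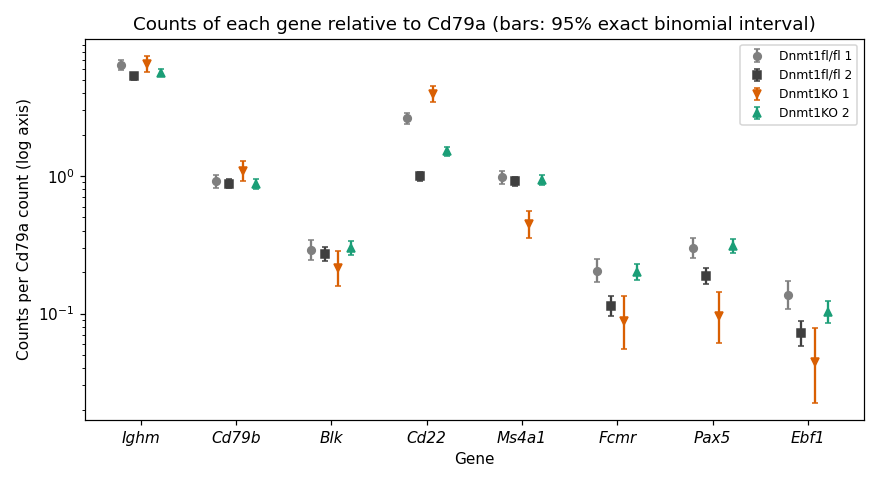
Counts of each gene per count of Cd79a in the 4 samples, on a log axis, with 95% exact binomial intervals as bars. Ighm and Cd79b stay within 1.25-fold over the samples, while in Dnmt1KO replicate 1 Ms4a1 lies at 0.445 against 0.917 to 0.980 in the others, and Cd22 lies highest at 3.94.

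Other B lineage genes were counted from a list of 30, of which 28 were in the table and all 28 passed the filter. Dnmt1KO replicate 1 was lowest in 24 of the 28, beside the 39.6% of all genes, and lower by at least 1 in 21, beside 9.19%, with a median difference of -1.60. The 4 genes that were not lowest there were Cd72, Jchain, Tnfrsf13b and Cd180. By genotype 0 of the 28 had an adjusted or an unadjusted p under 0.05 in edgeR, and in the comparison of Dnmt1KO replicate 2 with the controls 4 were higher and 1 was lower at an unadjusted p under 0.05, beside 1.15% and 1.57% of all genes, with no adjusted call. The list's median in that comparison was 0.37. This list was drawn up with results of these data known and shares its libraries with the members.

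Immunoglobulin light chain RNA was lowest in Dnmt1KO replicate 1. Igkc, the kappa constant gene, measured 24.8 and 50.6 CPM in Dnmt1fl/fl, 17.3 CPM in Dnmt1KO replicate 1 and 47.7 CPM in Dnmt1KO replicate 2, and Iglc2, a lambda constant gene, measured 11.3 and 19.1 CPM, then 3.48 and 16.7 CPM. Ly6d, a surface protein of early and mature B cells, measured 7.16 and 14.5 CPM in Dnmt1fl/fl and 3.53 and 13.6 CPM in Dnmt1KO. Igkc per count of Cd79a was 1.26 in Dnmt1KO replicate 1 (interval 1.07 to 1.48) against 0.805 to 0.938 in the others. In Igkc, Iglc2 and Ly6d, as in Cd79a, both replicate 1 samples lay below both replicate 2 samples. The abundant genes Cd37 (221 to 308 CPM), Ly86 (123 to 185 CPM), Cd180 (171 to 247 CPM) and Tnfrsf13b (49.7 to 56.3 CPM) varied much less over the samples. Cd72, an inhibitory surface protein, was highest in Dnmt1KO replicate 1 (60.6 CPM) and lowest in Dnmt1KO replicate 2 (26.6 CPM), and 41.6% of its exon length overlaps Tesk1 on the opposite strand.

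Some B lineage genes, picked after their values were seen, were low in Dnmt1KO replicate 1 also relative to the receptor genes. Ighd, the heavy chain of IgD, amounted to 5.33% and 4.33% of Ighm counts in Dnmt1fl/fl, 1.69% in Dnmt1KO replicate 1 and 5.98% in Dnmt1KO replicate 2. Siglecg, an inhibitory receptor, measured 1.82 CPM in Dnmt1KO replicate 1 and 18.8 to 28.3 CPM in the other 3 samples. Against these, Fcrla per count of Cd79a was 0.239 to 0.264 and Ly6d per count of Cd79a 0.232 to 0.269 over the 4 samples. Jchain, which joins secreted IgM and marks antibody-secreting cells, was 0.250 of the Cd79a count in Dnmt1KO replicate 1 and 0.0287 to 0.0797 in the others.

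Of 4 genes linked to B-1 cells, Dnmt1KO replicate 1 was lowest in 1, Zbtb32 (2.73 CPM against 4.38 to 8.73 CPM), and highest in 1, Bhlhe41 (68.1 CPM against 29.3 to 32.5 CPM). Cd5, a surface protein of B-1a and T cells, measured 2.54 to 3.12 CPM in all 4 samples, and Spn, which encodes CD43, measured 34.9 and 68.7 CPM in Dnmt1fl/fl and 57.5 and 37.0 CPM in Dnmt1KO. These genes did not move as a group. Of 22 genes that carry the receptor's signal, many of them also expressed in myeloid cells, Dnmt1KO replicate 1 was lowest in 9 and highest in 5, beside 39.6% and 38.8% of all genes, with a median difference of -0.13. Syk measured 513 to 656 CPM, Lyn 230 to 278 CPM, Plcg2 142 to 175 CPM and Ptpn6 326 to 395 CPM, so that the kinases and the phospholipase shared with macrophages varied little beside the B cell genes. None of these 26 genes had an unadjusted p under 0.05 by genotype or in the comparison of Dnmt1KO replicate 2 with the controls.

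Markers of other cells also moved with Dnmt1KO replicate 1. Neutrophil markers were highest there in 7 of 7 genes tested, 6 of them by at least 1 on the log2 scale, beside 38.8% and 3.56% of all genes. Their summed level, with the untested Ly6g included, was 215 and 319 CPM in Dnmt1fl/fl, 882 CPM in Dnmt1KO replicate 1 and 217 CPM in Dnmt1KO replicate 2. S100a9, a calcium-binding protein of neutrophils, measured 5.55 and 60.5 CPM in Dnmt1fl/fl and 320 and 8.35 CPM in Dnmt1KO. Mesothelial and stromal markers were highest in Dnmt1KO replicate 1 in 10 of 11 genes, beside the same 38.8%, with sums of 52.6 and 74.95 CPM in Dnmt1fl/fl and 143 and 35.6 CPM in Dnmt1KO.

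Several antigen-presenting cell lists were low in the same sample as the B cell genes. MHC class II genes, which B cells, dendritic cells and macrophages all express, were lowest in Dnmt1KO replicate 1 in 10 of 10, beside 39.6% of all genes, with sums of 7157 and 5324 CPM in Dnmt1fl/fl and 3738 and 6995 CPM in Dnmt1KO. Dendritic cell markers were lowest there in 6 of 6 (37.3 and 33.8 CPM, then 19.9 and 46.1 CPM), and markers of resident peritoneal macrophages in 6 of 6 (430 and 341 CPM, then 137 and 389 CPM). General macrophage markers were lowest there in 5 of 12 and highest in 4, near the 39.6% and 38.8% of all genes. They summed to 36723 and 35916 CPM in Dnmt1fl/fl and 19408 and 22495 CPM in Dnmt1KO. Lyz2 alone made up 29531, 28588, 11351 and 15745 CPM of these sums, and so most of their difference between genotypes. The median log2 fold change of the 12 genes by genotype was -0.04, with 7 of them below 0. No marker in these lists was at 0, since every gene of the table was above 0 in every sample. The part of these cells in the B cell gene levels was not tested, and in Dnmt1KO the mixture of cells cannot be told apart from the sample.

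T and NK cell markers, of the other lymphocytes of the cavity, were counted in the same way. T cell markers were lowest in Dnmt1KO replicate 1 in 9 of 18 genes and highest in 3, beside 39.6% and 38.8% of all genes, with a median difference of -0.15 and sums of 78.3 and 107 CPM in Dnmt1fl/fl and 75.2 and 99.96 CPM in Dnmt1KO. NK cell markers were lowest there in 2 of 8, with a median difference of -0.13 and sums of 29.5 and 54.2 CPM in Dnmt1fl/fl and 34.5 and 39.0 CPM in Dnmt1KO. Both lists were higher in Dnmt1fl/fl replicate 2 than in replicate 1, with median differences of 0.46 and 0.92, as was the median of the 9 B cell genes, 0.54.

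**Figure D5:**
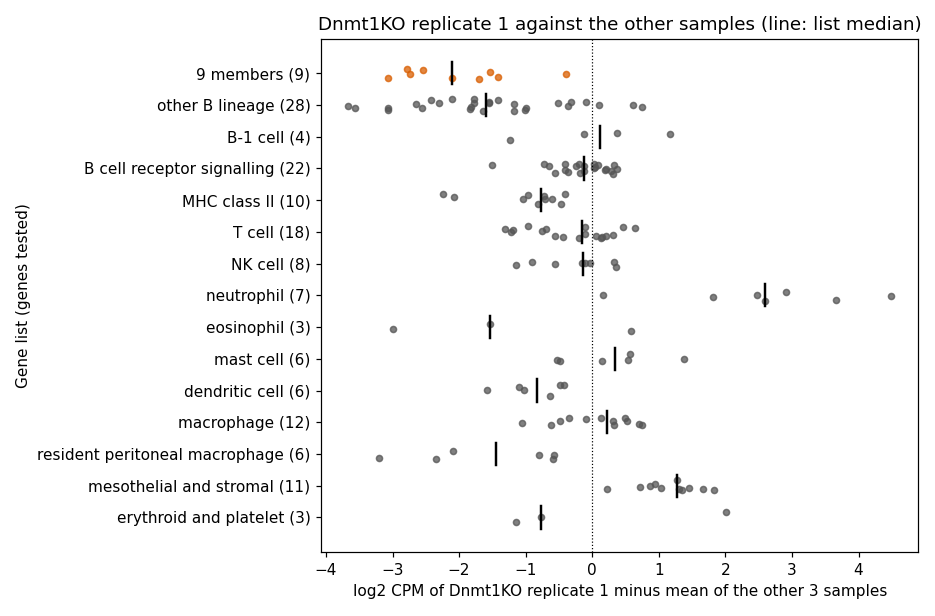
Log2 CPM of Dnmt1KO replicate 1 minus the mean of the other 3 samples for each gene tested (points) of the B cell genes and of 14 marker lists, with the number of genes tested in brackets and the list median as a vertical line. Medians run from -2.11 for the 9 B cell genes and -1.60 for other B lineage genes to 2.60 for neutrophil markers.

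Among the 10 genes whose profile over the 4 samples was nearest to the mean profile of the members were Psd3, Fgd2, Nacad, Scd1, Srpk3, A530010L16Rik, Dnase1l3, H2-Ob and AI480526. Likeness was the Euclidean distance between log2 CPM values centred on each gene's mean, and was 0.084 for Psd3 to 0.187 for AI480526, beside a median of 1.84 over all genes. The members themselves lay at 0.280 (Blk) to 1.56 (Cd22) from their mean, further than any of these 10. H2-Ob, an MHC class II modulator expressed in B cells, measured 24.0 and 29.4 CPM in Dnmt1fl/fl and 6.21 and 36.9 CPM in Dnmt1KO. Fgd2, a guanine nucleotide exchange factor, measured 42.8 and 48.6 CPM, then 11.9 and 61.9 CPM. Nacad had 1 count in Dnmt1KO replicate 1, under the floor.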

How the data were processed

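RNA of 4 peritoneal macrophage samples was sequenced by the authors. Per the submitters' processing notes, HISAT2 2.0.5, featureCounts 1.5.0-p3 and DESeq2 1.20.0 were used with build mm10; the annotation is not given in the sources used here. The table the authors deposited holds estimated counts per gene, not normalized, of which 72.6% to 76.4% per sample were whole numbers. How reads matching several genes were divided is not stated. A shorter table of the same samples was not used. Depth ran from 20228071 to 24198943 counts per sample.

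Values were rounded, filtered with filterByExpr, scaled by TMM and tested with edgeR 4.0.16 (R 4.3.3) by its quasi-likelihood test (two-sided), and p-values were adjusted over all genes tested by the Benjamini-Hochberg method. The test was run on simulated counts with known changes first. DESeq2 1.42.0, limma-voom (limma 3.58.1), other scalings, other filters, the replicate number as a block and leaving out each sample were alternatives. Log2 CPM used a prior count of 2. The SD of log2 CPM was pooled over both genotypes. Per-kilobase levels used exon lengths of GENCODE M21, to which 13590 genes were matched by symbol. Other calculations used Python 3.11.15.

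The 9 genes and all lists were chosen with earlier results of these data known. Named genes were the 9 members, Dnmt1, the 10 nearest profiles and, from each list, its most abundant genes (up to 8 from the B lineage, B-1 and receptor signalling lists by level per kilobase, up to 3 from others); Ighd, Siglecg, Fcrla, Jchain and the remaining exceptions were named after their values were seen. Vpreb3 and Iglc1 of the B lineage list were not in the table. The results of some genes that this rule names are not reported here.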

Additional observations from a re-analysis of the deposited data

How the results depend on the processing

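For the comparison of genotypes edgeR gave 0 genes with an adjusted p under 0.05, DESeq2 gave 1, and leaving out a sample gave 0 (without Dnmt1KO replicate 1) to 1061 (without Dnmt1KO replicate 2). Same-numbered samples deviated in opposite directions (correlation -0.36), and nothing in the labels pairs them. With the replicate block the count was 0 (34 unadjusted). A crossed pairing, chosen after seeing the data, gave 3. For Dnmt1KO replicate 2 against the controls edgeR gave 0, no filter on low counts gave 4 and DESeq2 gave 14. The summed level of the 9 genes had a log2 ratio of -1.32 to 0.37 when each sample was left out. Without Dnmt1fl/fl replicate 2 it was -0.02, and Cd79a (0.15), Cd79b (0.15), Ighm (0.021), Blk (0.10) and Cd22 (-0.24) changed sign. Over all samples left out the fold changes ranged from -1.43 to 0.35 for Ighm, -1.63 to 0.36 for Cd79a, -1.34 to 0.33 for Cd79b, -2.02 to 0.46 for Blk, -0.32 to 0.35 for Cd22, -2.71 to 0.35 for Ms4a1, -2.36 to 0.81 for Fcmr, -2.88 to 0.81 for Pax5 and -2.74 to 0.47 for Ebf1. Cd22 also turned from 0.019 to -0.028 when scaled by library totals. The causes of these changes were not tested, beyond which sample was left out. Of the members' 72 fold changes under other settings with all 4 samples, 71 kept the direction and the side of the adjusted threshold, but not the size: Pax5 went from -0.08 to -0.93 with limma-voom and -0.94 with the replicate block. With 2 samples per genotype, replicate SDs were 0.91 to 1.80 in 8 of the 9 genes. The genotype differences of these genes lay within that spread. It takes in the gap between the Dnmt1KO samples, which the choice of genes low in Dnmt1KO replicate 1 favoured. Setting the differences against it therefore describes these genes and tests nothing.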

Other observations

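The remaining marker lists held few genes. Eosinophil markers were lowest in Dnmt1KO replicate 1 in 2 of 3 genes tested, beside 39.6% of all genes. The larger difference was that of Il5ra, the interleukin 5 receptor chain that B-1 cells also carry. Il5ra measured 2.29 and 1.83 CPM in Dnmt1fl/fl and 0.202 and 2.63 CPM in Dnmt1KO. In Dnmt1KO replicate 1 it had 4 counts, close to the floor of 3. Siglecf, which eosinophils and alveolar macrophages express, was highest there at 5.604 CPM against 3.14 to 4.19 CPM. Mast cell markers were lowest in Dnmt1KO replicate 1 in 2 of 6 genes tested and highest in 3, near the 39.6% and 38.8% of all genes. Their sums, with the untested Fcer1a included, were 18.0 and 20.4 CPM in Dnmt1fl/fl and 27.4 and 14.4 CPM in Dnmt1KO. Erythroid and platelet markers summed to 1.99 to 2.58 CPM over the 4 samples, with 3 of 7 genes in the table.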
